A study of Mus musculus with 4 samples.

Results

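Among fibroblasts sorted from mouse colon tumours, 84 wells met a rule that asked for at least 2 transcripts of Bmp5, Bmp7 and Sox6 together. They were 84 of 740 kept wells, and they are called the Bmp5/Bmp7 wells here. Wells under 1000 transcripts, or with over 30% of transcripts from the mitochondrial genome, were set aside. Membership also required fewer than 20 transcripts of Mmp13 and Mmp10, collagen- and matrix-cleaving proteases, per 10000 transcripts of the well, and fewer than 5 of Myh11, the smooth muscle myosin heavy chain. Of 123 kept wells that met the 2-transcript condition, 25 were over the limit on Mmp13 and Mmp10 and 14 over that on Myh11. All of these genes chose the wells, so their levels are given as a description and were not tested.

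The wells came from 4 tumours of 1 group: cancer-associated fibroblasts from untreated orthotopic APTKA tumours in the colon of female C57BL6J mice. All tumours share that line, strain, sex and lack of treatment. The age of the mice, the sort gate and the alleles behind the name APTKA are absent from the labels used here, as is whether each tumour came from its own mouse. One plate of 384 wells was filled per tumour, 1 cell to a well, and RNA was read by SORT-seq with CEL-Seq2 libraries, which count molecules from the end of the transcript that carries the poly(A) tail.

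Bone morphogenetic proteins (BMPs) are secreted ligands that bind serine/threonine kinase receptors, activate SMAD proteins and induce targets such as the Id genes. In the gut they are strongest near the top of the crypt, where they favour differentiation, while antagonists such as gremlins hold them down around the stem cells at the crypt base. Telocytes are Pdgfra-bearing mesenchymal cells that lie directly under the epithelium. In the mouse colon those near the crypt top are known for Bmp5, Bmp7, Sox6, tissue factor (F3), the growth factor gene Fgf9 and the protein C receptor gene Procr. Other fibroblasts of the lamina propria, the tissue between crypts, are known for the secreted protease gene Adamdec1, and those around vessels and under the crypts for Pi16, Cd81 and the BMP antagonist Grem1.

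The share of kept wells that met the rule was 14.0% in tumour 1 (6 of 43 wells, 95% Clopper-Pearson interval 5.30 to 27.9), 8.0% in tumour 2 (20 of 250, 4.95 to 12.1), 15.6% in tumour 3 (38 of 243, 11.3 to 20.8) and 9.80% in tumour 4 (20 of 204, 6.09 to 14.7). The mean was 11.8 ± 3.55% (SD, n = 4), and the intervals, which cover counting error only, overlap. A rule that asks for 2 transcripts is met more easily by a deep well. The members' median depth was 12608, 8658, 12305 and 13405 transcripts in tumours 1 to 4, against 5360, 9096, 8221 and 10194 in the other fibroblast wells. When every well was thinned to 3000 transcripts, 37 of 608 wells deep enough still met the rule (6.45, 4.02, 8.87 and 5.14% in tumours 1 to 4, mean 6.12 ± 2.08%), so the share is a share at a given depth, and tumour 3 had the highest share at this depth.

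Bmp7, a BMP ligand, was the most widely found of the selecting genes, with a transcript in 75 of the 84 wells. Bmp5, a ligand of the same subfamily, was found in 60 wells, and Sox6, a transcription factor of the SOX family, in 17. Both ligands without Sox6 were found in 38 wells, Bmp7 alone in 22, Bmp5 alone in 7 and all of the genes in 13. Sox6 accompanied Bmp5 alone in 2 wells and Bmp7 alone in 2, and no well entered through Sox6 alone. The 3 genes lie on different chromosomes of the mm10 assembly, Bmp5 at chr9:75775364-75900310, Bmp7 at chr2:172868012-172940321 and Sox6 at chr7:115470872-116038796.

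In transcripts per 10000 of each tumour's summed wells, Bmp7 stood at 2.12, 3.54, 3.13 and 2.25 in tumours 1 to 4 (other fibroblast wells 0.218, 0.166, 0.809 and 0.275). Bmp5 stood at 0.831, 1.47, 1.70 and 1.71 (other wells 0.524, 0.0899, 0.235 and 0.0887). Sox6 was absent from the members of tumour 1, whose other wells held 0.612, and stood at 0.436, 0.262 and 0.679 in tumours 2 to 4 (other wells 0.0208, 0.0511 and 0.0133). Many members sat close to the threshold: the summed transcripts of the 3 genes ran from 2 to 33 with a median of 5, and 25 wells (29.8%) had exactly 2. Just outside it, 60 fibroblast wells within the other limits had exactly 1.

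**Figure D1:**
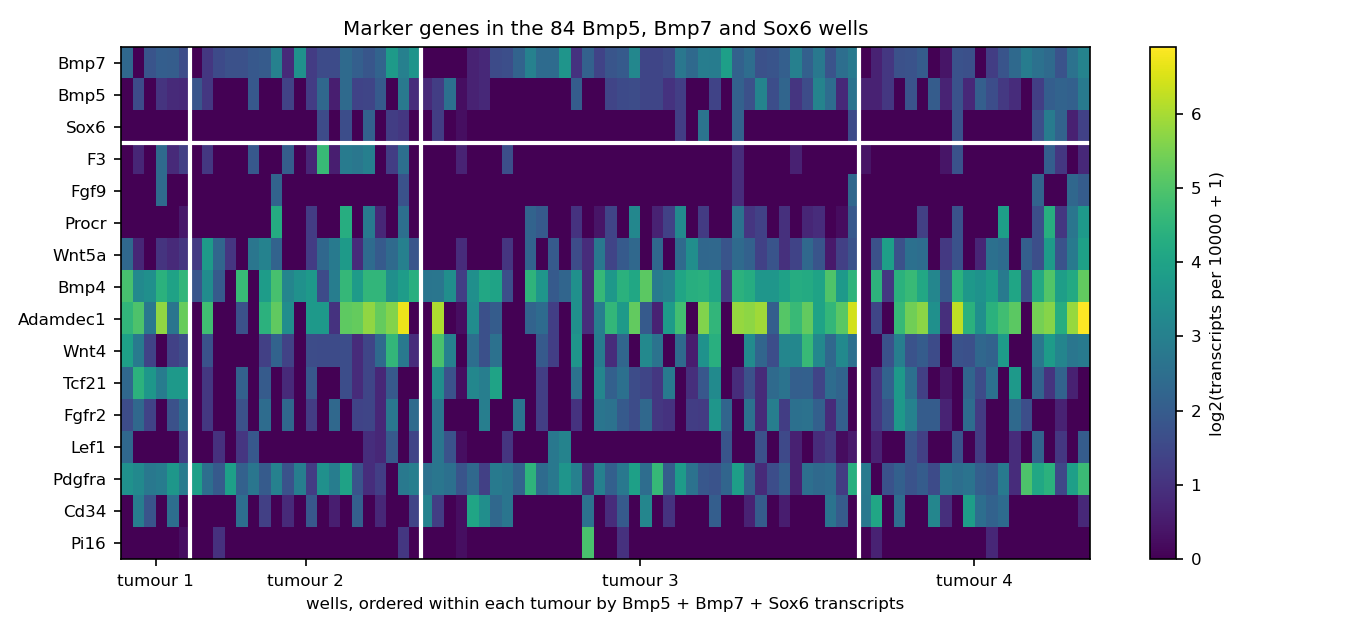
Each column is 1 of the 84 Bmp5/Bmp7 wells, grouped by tumour and ordered by the summed transcripts of Bmp5, Bmp7 and Sox6; colour is log2(transcripts per 10000 + 1), and the rows above the white line are the selecting genes. Bmp4, Pdgfra and Adamdec1 were found in 80, 82 and 68 wells (95.2, 97.6 and 81.0%), while F3, Procr and Fgf9 were found in 25, 33 and 8 (29.8, 39.3 and 9.52%). In the other fibroblast wells the shares were 71.6, 78.0 and 25.1%, and 16.8, 17.2 and 4.33%. Their median depth was lower, 8941 against 11916.5 transcripts.

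By their matrix genes most members counted as fibroblasts: 79 of 84 had at least 30 transcripts of Dcn and Col1a1 per 10000. This did not set them apart, since most kept wells met that limit. Among the 740 kept wells, 577 that were not members met it, and the members were compared with these. Counts were summed per tumour and class, giving 108328 to 610594 transcripts for the members and 228944 to 2891488 for the others, and were tested by edgeR's quasi-likelihood test with the tumour as a block (residual degrees of freedom 3). Of 5703 genes tested, 97 were higher in the members (1.70% of all tested) and 79 lower (1.39%) at a Benjamini-Hochberg adjusted p under 0.05, and the median log2 fold change of all genes was -0.003. The smallest class was in tumour 1, where 1 well gave 49.7% of the members' transcripts and spike-in RNA took 44.0% of the plate (5.54 to 8.59% in the other plates).

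The limits on Mmp13, Mmp10 and Myh11 applied to the members only, and 85 of the 577 other wells were over them. Any well with at least 2 selecting transcripts but over a limit counted among the other wells if it met the Dcn and Col1a1 limit. Against the 492 wells within the same limits, a comparison added after the data were seen, 178 of 5647 genes were higher (3.15%) and 146 lower (2.59%). Tumour 3 held 38 of the 84 members and carried many of the calls. Without it, 84 of the 97 genes with higher levels and 64 of the 79 with lower levels could be fitted and all kept their direction, but 14 and 8 of them were called again. Over the genes named by list or by size of change, 44 calls were lost without tumour 3, 32 without tumour 4, 24 without tumour 2 and none without tumour 1. Of the 66 called genes that this rule gave, 55 could be refitted without each tumour in turn, and 11 were called every time: Lef1, Fgfr2, Syt13, Col18a1 and Lama1, which were higher, and Gdf10, Sfrp1, Sfrp4, Pi16, Col8a1 and Adcyap1r1, which were lower.

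The telocyte name was only partly borne out by the markers that had not chosen the wells. F3, the trigger of blood clotting, stood at 1.29, 2.34, 0.115 and 0.321 transcripts per 10000 in the members of tumours 1 to 4 and at 0.481, 0.806, 0.189 and 0.226 in the other fibroblast wells, a log2 fold change of 0.75 ± 0.36 (SE, edgeR adjusted p = 0.457). The members were higher in tumours 1, 2 and 4 and lower in tumour 3. Procr stood at 0.185, 1.52, 0.737 and 2.61 against 0.83, 0.529, 0.419 and 0.364, a log2 fold change of 1.28 ± 0.49 (edgeR adjusted p = 0.285). Tumour 1 went the other way from the other 3. Fgf9 (34 transcripts in 8 members) and Foxl1, a transcription factor that defines telocytes in the small intestine (21 transcripts in 13 members), were too low to be tested.

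Both genes were higher against the wells within the same limits, F3 by 1.63 (edgeR adjusted p = 0.0203) and Procr by 2.16 (0.00119) on the log2 scale. After thinning to 3000 transcripts, F3 was found in 12.5% of members, 7.52% of other fibroblast wells and 14.0% of the 43 thinned wells with at least 5 Myh11 transcripts per 10000. For Procr these shares were 23.8, 7.31 and 25.6%, and unthinned they were 39.3, 17.2 and 24.3% at median depths of 11916.5, 8941 and 4320 transcripts. The members' thinned shares of F3 and Procr were thus no higher than in those Myh11 wells. Pdgfra, found in 82 of the 84 members, did not pass the test against other fibroblast wells (log2 fold change 0.01 ± 0.21, edgeR adjusted p = 0.9997).

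Beyond these, 34 other genes known from telocytes and subepithelial fibroblasts were listed and 22 were tested. Of these, 5 were higher and none lower, with a median log2 fold change of 1.09 (all genes -0.003). The 5 were Bmp4, the epidermal growth factor family ligand gene Nrg1, angiotensinogen (Agt), the proprotein convertase gene Pcsk6 and the WNT inhibitor gene Wif1. Against the wells within the same limits, 12 of 21 were higher and none lower. These 12 also held Wnt5a, a non-canonical WNT ligand of telocytes, Bmp2, and the mesenchymal FOX factors Foxf1 and Foxf2.

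Wnt5a showed how far the comparison group mattered. It was found in 65 of the 84 members and stood at 1.02, 3.76, 2.16 and 3.39 transcripts per 10000 in tumours 1 to 4, against 1.05, 0.477, 1.60 and 0.714 in all other fibroblast wells. Tumour 1 showed no difference, and the log2 fold change was 1.50 ± 0.43 (edgeR adjusted p = 0.111). Against wells within the same limits it was 2.51 (edgeR adjusted p = 0.000225).

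Lamina propria fibroblast genes were among those higher in the members. Of 9 tested genes of that list, 4 were higher and none lower, with a median log2 fold change of 1.21: Adamdec1, the WNT ligand gene Wnt4, the transcription factor gene Tcf21 and Fgfr2, a receptor of fibroblast growth factors. The other 5 missed the threshold. Against wells within the same limits 5 of 9 were higher, Bmp2 being the added one, and 1 lower, the chemokine gene Ccl11 (median 1.01). Adamdec1 lies at chr14:68563380-68582095 and Wnt4 at chr4:137277489-137299726 of mm10.

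Adamdec1 stood at 30.02, 21.0, 20.001 and 24.1 transcripts per 10000 in the members of tumours 1 to 4 and at 11.01, 1.05, 2.20 and 0.63 in the other fibroblast wells. Each member sum was above each other sum, and the log2 fold change was 3.51 ± 0.53 (edgeR adjusted p = 0.00573; without tumour 3 it was 3.67, adjusted p = 0.0839). Across single members the level ran from 0 to 118 with a median of 13.9, so 16 members had none. Wnt4 stood at 2.86, 2.50, 5.72 and 3.57 against 1.18, 0.349, 0.491 and 0.28. Its groups did not overlap either, and the log2 fold change was 2.90 ± 0.36 (edgeR adjusted p = 0.00216; 0.0517 without tumour 3).

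Fgfr2 stood at 3.24, 1.91, 2.57 and 1.46 against 1.22, 0.232, 0.302 and 0.169, with a log2 fold change of 2.66 ± 0.30 (edgeR adjusted p = 0.0018; at most 0.0444 without any 1 tumour). Tcf21 was much higher in tumour 1 than elsewhere in both classes, 12.4 against 4.67, and stood at 0.98, 3.24 and 2.25 against 0.591, 1.15 and 0.914 in tumours 2 to 4. Its log2 fold change was 1.21 ± 0.21 (edgeR adjusted p = 0.0131; up to 0.119 without tumour 3 or 4). Adamdec1, Wnt4 or Tcf21 together reached 2 transcripts in 69 of the 84 members (82.1%), and 68 of these members were among the 228 fibroblast wells within the limits that did so (29.8%). The genes were thus common in the members without being restricted to them. With wells thinned to 3000 transcripts, any of the genes was found in 66 of 80 members and 133 of 412 other fibroblast wells within the limits (100, 72.2, 83.3 and 85.0% against 71.4, 26.9, 35.8 and 31.1% in tumours 1 to 4), so the members stood higher in each tumour at equal depth.

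**Figure D2:**
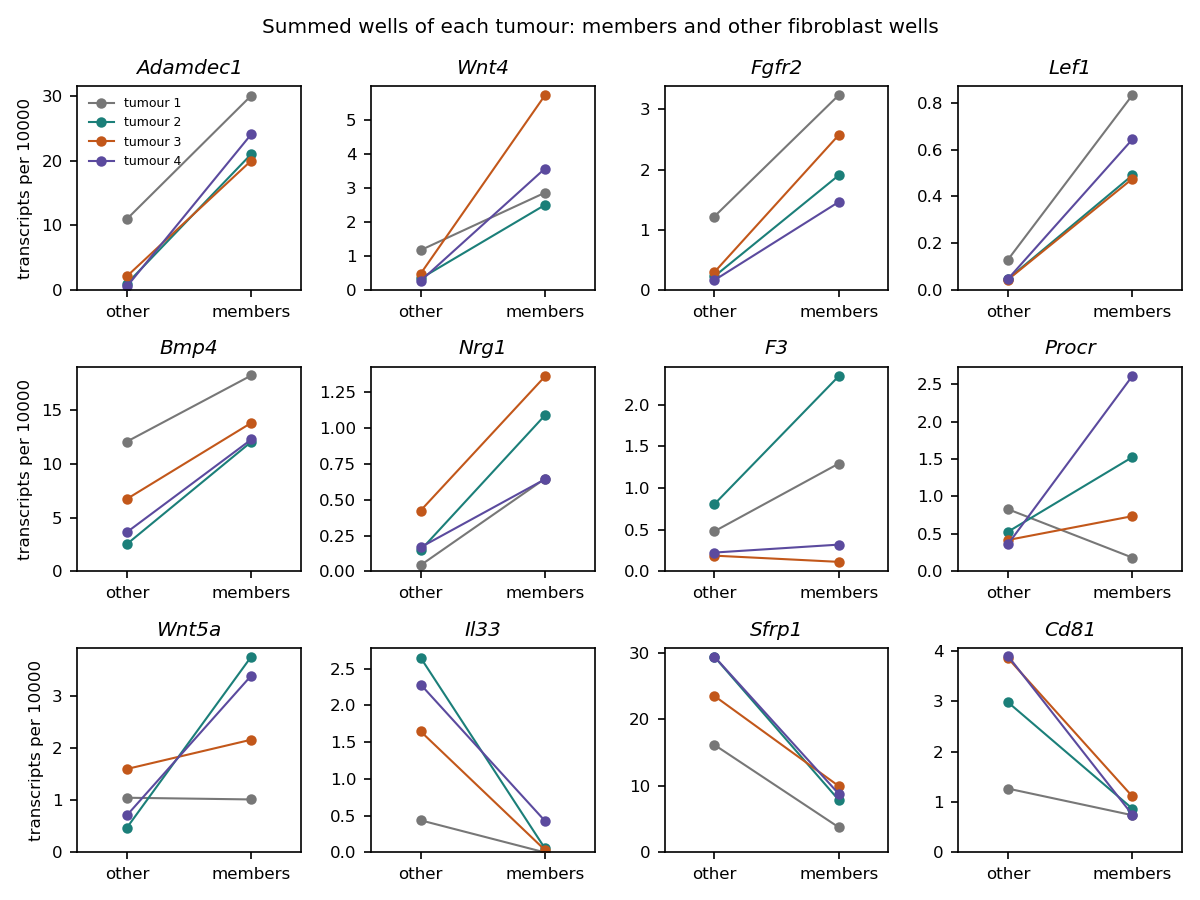
Transcripts per 10000 in the summed wells of each tumour, for the other fibroblast wells (left) and the Bmp5/Bmp7 wells (right); each line is 1 tumour and each axis starts at 0. Adamdec1, Wnt4, Fgfr2, Lef1, Bmp4 and Nrg1 were higher and Il33, Sfrp1 and Cd81 lower in the members of all 4 tumours, while F3, Procr and Wnt5a went both ways.

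Among the BMP ligands that had not chosen the wells, Bmp4 was higher. It was found in 80 members and stood at 18.2, 12.03, 13.8 and 12.2 transcripts per 10000 against 12.1, 2.55, 6.74 and 3.65, so the members of tumour 2 stood no higher than the other wells of tumour 1. The log2 fold change was 1.34 ± 0.26 (edgeR adjusted p = 0.021; up to 0.141 without tumour 2, 3 or 4). Of the 5 ligands tested, 1 more was called: Gdf10, which encodes a relative of BMP3, was lower, at 0.0924, 0.109, 0.0655 and 0 against 3.93, 0.681, 0.67 and 0.626, a log2 fold change of -4.04 ± 0.46 (edgeR adjusted p = 0.0018).

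Bmp2 depended on the comparison wells. It stood at 1.48, 6.97, 2.67 and 2.75 against 1.35, 0.588, 1.40 and 0.626, higher in 4 of 4 tumours but by little in tumour 1 (log2 fold change 1.76 ± 0.44, edgeR adjusted p = 0.0647). Against wells within the same limits it was 3.61 higher (edgeR adjusted p = 3.51e-05), and Inhba, the activin A subunit gene, was called higher as well.

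On the receiving side, none of 7 tested receptors was called higher. Bmpr1a, a type I receptor, had a log2 fold change of 0.13 ± 0.22 and Bmpr2, the type II receptor, of -0.04 ± 0.22 (edgeR adjusted p = 0.92 and 0.986), while the co-receptor gene Tgfbr3 was lower by 1.29 (edgeR adjusted p = 0.0254; up to 0.161 without tumour 3 or 4). Of 9 signal transducers and targets, 2 were higher and none lower, with a median log2 fold change of 0.51: Smad6, an inhibitory SMAD induced by BMPs, and Id1, an inhibitor of differentiation factors. Smad6 stood at 0.924, 0.599, 0.688 and 0.571 against 0.481, 0.169, 0.143 and 0.209 (log2 fold change 1.64 ± 0.31, edgeR adjusted p = 0.0165; up to 0.187 without tumour 2, 3 or 4). Id1 stood at 1.20, 0.49, 1.16 and 2.11 against 0.655, 0.218, 0.44 and 0.581 (1.37 ± 0.25, edgeR adjusted p = 0.016; up to 0.224 without tumour 3 or 4). Both were higher in all 4 tumours, whereas Id2 and Id3 missed the threshold (0.65 and 0.51, edgeR adjusted p = 0.705 and 0.271).

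Secreted BMP antagonists were mostly lower or not called. Of 9 tested, 3 were lower and 1 higher, with a median log2 fold change of -0.87. Among the lower genes, the chordin-like gene Chrdl2 was lower by 2.70 (edgeR adjusted p = 0.0235; 0.0624 without tumour 4) and the follistatin gene Fst by 1.56 (0.0249; up to 0.198 without tumour 2, 3 or 4). Twsg1, which can act for or against BMP signalling, was higher by 1.09 (edgeR adjusted p = 0.0264; up to 0.200 without tumour 2, 3 or 4). Grem1 itself stood at 0.554, 0.163, 0.754 and 1.04 against 0.481, 0.681, 1.13 and 0.652. It went both ways between tumours and did not pass the test (log2 fold change -0.33 ± 0.37, edgeR adjusted p = 0.844).

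In the WNT pathway, the ligand Wnt4 and the nuclear factor Lef1 were higher together with a changed set of inhibitors. Lef1, the DNA-binding partner of beta-catenin, stood at 0.831, 0.49, 0.475 and 0.643 against 0.131, 0.0484, 0.046 and 0.0488. Every member sum was above every other sum, and the log2 fold change was 3.29 ± 0.37 (edgeR adjusted p = 0.0018; at most 0.0375 without any 1 tumour). It was the only 1 of 7 tested WNT receptors and targets that passed, and its transcripts were found in 32 members. Lef1 lies at chr3:131110471-131224356 of mm10.

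Of 8 tested R-spondins and WNT antagonists, 1 was higher and 2 lower, with a median log2 fold change of 0.03. Wif1, which binds WNT ligands, stood at 0.554, 1.20, 1.15 and 2.61 against 0.568, 0.083, 0.409 and 0.231, level in tumour 1 and higher in the other tumours (2.39 ± 0.50, edgeR adjusted p = 0.0274; up to 0.194 without tumour 2, 3 or 4). Sfrp1, a secreted Frizzled-related inhibitor, stood at 3.79, 7.89, 9.98 and 8.82 against 16.2, 29.4, 23.5 and 29.4. The members of every tumour were below every other sum (-1.79 ± 0.21, edgeR adjusted p = 0.0018). Sfrp4, of the same family, was lower by 3.54 (edgeR adjusted p = 0.00588). Rspo3, a WNT-enhancing R-spondin of the crypt base niche, had 50 transcripts in 7 members and did not pass (log2 fold change 0.79 ± 0.57, edgeR adjusted p = 0.711).

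Of 10 tested factors of the fibroblast and epidermal growth factor list, 2 were higher, the epidermal growth factor family genes Nrg1 and Ereg, and 1 lower, with a median log2 fold change of 0.25. Nrg1 stood at 0.647, 1.09, 1.36 and 0.643 against 0.0437, 0.149, 0.424 and 0.169, with no overlap between groups (2.15 ± 0.32, edgeR adjusted p = 0.00528; 0.0557 without tumour 3). Ereg, which encodes the EGF receptor ligand epiregulin, stood at 0.369, 5.12, 7.47 and 5.0 against 0, 1.51, 2.85 and 1.21. Tumour 1 was low in both classes, and each tumour's members were above its other wells (1.74 ± 0.28, edgeR adjusted p = 0.00755; up to 0.0716 without tumour 3 or 4). Figf, which encodes the lymphatic growth factor VEGF-D, was lower by 2.15 (edgeR adjusted p = 0.0448; up to 0.372 without tumour 2, 3 or 4).

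Among 21 tested SOX and patterning transcription factors, 3 were higher and 1 lower (median 0.21) against all other fibroblast wells, and 8 were higher and 2 lower (median 0.47) against wells within the same limits. Besides Tcf21, the first 3 were the gut mesenchyme homeobox gene Nkx2-3 (1.79 ± 0.35, edgeR adjusted p = 0.0212) and the hindlimb and hindgut homeobox gene Pitx1 (1.73 ± 0.32, 0.016). Nkx2-3 stood at 1.85, 1.42, 1.56 and 1.32 in the members against 1.66, 0.263, 0.343 and 0.266, so that nearly all of the difference lay in tumours 2 to 4. Both calls were lost when tumour 2, 3 or 4 was left out (adjusted p up to 0.198 and 0.146). Twist2 was lower by 1.57 (edgeR adjusted p = 0.0219; up to 0.222 without tumour 2 or 3), but by 0.98 against wells within the same limits (0.145).

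The Hedgehog and FOX list gave no higher gene among 11 tested against all other fibroblast wells, and 2 were lower. Against wells within the same limits, 2 of 11 were higher, Foxf1 and Foxf2, and 2 lower. Gli1, a Hedgehog target, was 0.59 ± 0.63 on the log2 scale (edgeR adjusted p = 0.834), and Gas1, a Hedgehog co-receptor, was lower by 2.28 (0.019; up to 0.174 without tumour 3 or 4). Foxp2 was nearly absent from the members: 2 transcripts were found in all, against 342 in the other wells, a rate 27.6 times lower with a 95% counting interval of 7.58 to 229 (edgeR adjusted p = 0.0018; 0.0557 without tumour 3).

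The members carried more of some basement membrane genes. Of 19 tested, 3 were higher and 1 lower, with a median log2 fold change of 0.27. Col18a1, which encodes the collagen that yields endostatin, stood at 16.5, 6.91, 12.1 and 8.82 against 3.36, 1.76, 3.01 and 2.91. The groups did not overlap, and the difference held without each tumour (1.90 ± 0.19, edgeR adjusted p = 0.0018; at most 0.0246). Lama1, a laminin alpha chain gene, stood at 2.40, 1.25, 1.51 and 1.11 against 0.655, 0.163, 0.455 and 0.186 (2.19 ± 0.26, edgeR adjusted p = 0.0018; at most 0.0288). The laminin beta chain genes differed in direction: Lamb1 was higher by 0.94 and Lamb2 lower by 0.98 (edgeR adjusted p = 0.019 and 0.0358; up to 0.199 and 0.186 without tumour 2, 3 or 4).

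Of 27 tested fibrillar matrix genes, none was called higher and 2 were lower, Col14a1 by 1.19 and the proteoglycan gene Lum by 1.40 (edgeR adjusted p = 0.0413 and 0.0125; up to 0.267 and 0.108 without tumour 2, 3 or 4). The fibrillar collagen genes Col1a2 and Col3a1 had log2 fold changes of 0.01 ± 0.29 and -0.02 ± 0.25.

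Of 12 tested genes of adventitial and crypt base fibroblasts (trophocytes), 6 were lower and none higher, with a median log2 fold change of -1.07: Cd81, a tetraspanin, Cd34, a progenitor surface protein, Pi16, a peptidase inhibitor, the complement gene C3, the hyaluronan synthase gene Has1, and Sfrp1. The crypt base genes Grem1, Rspo3 and Dkk2 of this list did not pass (-0.33, 0.79 and 1.21, edgeR adjusted p = 0.844, 0.711 and 0.544). Cd81 stood at 0.739, 0.871, 1.11 and 0.75 against 1.27, 2.98, 3.86 and 3.90, below every other sum (-1.86 ± 0.26, edgeR adjusted p = 0.00354; 0.0563 without tumour 3). Pi16 stood at 0.0924, 0.109, 0.59 and 0.0714 against 0.655, 2.69, 2.12 and 2.80 (-3.14 ± 0.47, edgeR adjusted p = 0.00534). Its highest member sum, in tumour 3, came largely from 1 well. Cd34 was lower by 1.31 and C3 by 1.23 (edgeR adjusted p = 0.0165 and 0.016; up to 0.149 and 0.119 without tumour 2 or 3), and 39 members still carried Cd34.

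The inflammatory CAF list overlaps this one in C3, Cd34 and Has1. Of its 19 tested genes, 5 were lower and none higher (median -0.67), the other two being the chemokine gene Ccl7 and Il33, an alarmin cytokine. Against wells within the same limits 7 were lower and 1, Il11, higher (median -0.64). Ccl7 was lower by 1.02 (edgeR adjusted p = 0.0463; up to 0.236 without tumour 2, 3 or 4) and Has1 by 2.19 (0.025; up to 0.223 without tumour 2 or 3). Il33 stood at 0, 0.0544, 0.0328 and 0.429 against 0.437, 2.65, 1.65 and 2.28. It was found in 6 members, and the highest member sum, in tumour 4, was just below the lowest other sum (-3.94 ± 0.50, edgeR adjusted p = 0.00226; 0.0511 without tumour 3). Il6 stood at 0.185, 0.218, 0.721 and 0.107 against 0.0437, 3.37, 0.859 and 1.97 and did not pass (-2.03 ± 0.64, edgeR adjusted p = 0.156), but did against wells within the same limits (-2.25, 0.0325). Cxcl12 did not pass in either (-0.34 and -0.64, edgeR adjusted p = 0.575 and 0.085).

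For contractile CAF genes the result turned on the comparison wells. Of 18 tested, 3 were lower and none higher (median -0.40): Col8a1, the matrix glycoprotein gene Thbs2 and the intermediate filament gene Des. Without a tumour, Thbs2 (tumour 3) and Des (tumour 2 or 4) lost their calls (adjusted p up to 0.0839 and 0.195). Col8a1 stood at 0.554, 0.653, 1.29 and 0.357 against 1.40, 6.20, 4.70 and 6.20 (-2.75 ± 0.39, edgeR adjusted p = 0.00398). Against wells within the same limits the same 3 genes were lower but 5 were higher, and the median was 0.39. Those 5 were the smooth muscle actin gene Acta2, Myl9, Tpm1, Postn and Inhba, which serve contraction, matrix and TGF-beta family signalling. Acta2 stood at 31.5, 16.7, 11.1 and 13.8 in the members and at 65.1, 16.0, 6.85 and 7.50 in all other wells (0.10 ± 0.30, edgeR adjusted p = 0.966), and was 1.24 higher within the limits (0.00931).

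**Figure D3:**
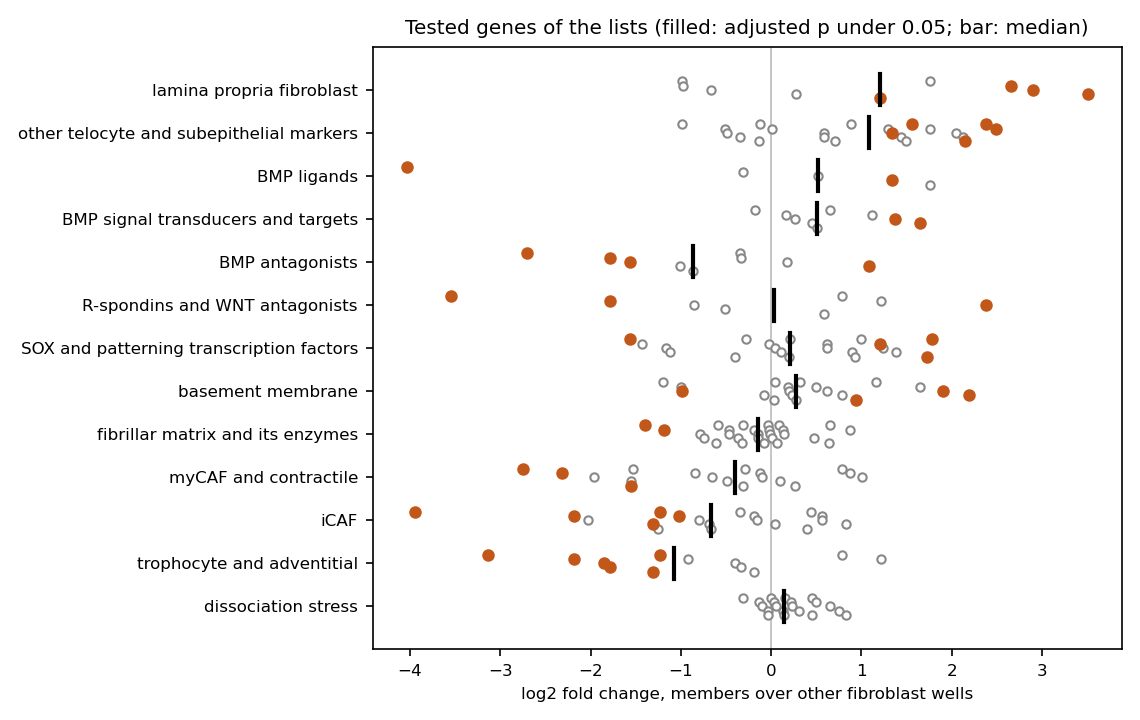
Each point is a tested gene of the named list, at its log2 fold change between Bmp5/Bmp7 wells and all other fibroblast wells; filled points have an edgeR adjusted p under 0.05 and the black bar is the list's median. Among the lists drawn, which are part of those tested, the medians run from 1.21 for lamina propria fibroblast genes to -1.07 for trophocyte and adventitial genes, and no dissociation stress gene is filled.

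Few genes were called against all other fibroblast wells in the remaining lists. Of 16 tested neural guidance genes, Sema3f and Robo1 were higher (2.86 and 1.38, edgeR adjusted p = 0.0153 and 0.0134; up to 0.177 without tumour 3, and for Robo1 up to 0.128 without tumour 2, 3 or 4), and the guidance ligand gene Slit3 was lower by 1.30 (0.00861; up to 0.106 without tumour 3 or 4). Of 10 retinoid and lipid genes, Lpl, which encodes lipoprotein lipase, and Rdh10, a retinol dehydrogenase gene, were higher (1.45 and 1.09, edgeR adjusted p = 0.00494 and 0.0308). Both lost their calls without tumour 3 or tumour 4 (adjusted p up to 0.0723 and 0.237). Of 12 coagulation genes, Serpine2, a protease inhibitor gene, was lower by 1.42 (edgeR adjusted p = 0.00882; 0.115 without tumour 3), but not against wells within the same limits (-0.10, 0.95).

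Genes outside the lists were named by size of change. The 12 largest increases were, besides Adamdec1, Lef1, Wnt4, Sema3f, Fgfr2 and Agt, the G protein regulator gene Rgs17 (log2 fold change 2.89), Clec14a, a lectin gene known from endothelium (2.80), the synaptotagmin gene Syt13 (2.72), the sialyltransferase gene St6galnac2 (2.67), the tight junction gene Cldn1 (2.64) and the receptor kinase gene Adrbk2 (2.63), with edgeR adjusted p of 0.0018 to 0.0165. Syt13 stood at 2.86, 2.23, 2.83 and 1.79 against 1.09, 0.249, 0.297 and 0.226 and was called without each tumour. Agt stood at 1.48, 0.163, 1.56 and 1.46 against 0.481, 0.0726, 0.245 and 0.124, and tumour 2 was low in both classes (2.49 ± 0.38, edgeR adjusted p = 0.00588; 0.134 without tumour 3). Without tumour 3 Rgs17 was not called (0.116) and Clec14a, St6galnac2, Cldn1 and Adrbk2 could not be fitted; Clec14a, St6galnac2 and Adrbk2 lost the call without tumour 4, and Adrbk2 without tumour 2 (adjusted p up to 0.0597, 0.114 and 0.0606).

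Among the 12 largest decreases, Ctla2a, which encodes a cysteine protease inhibitor, had 24 transcripts in the members and 4229 in the other wells. It stood at 0, 0.109, 0.229 and 0.286 against 0.131, 0.84, 9.47 and 9.46, so its level in the other wells differed widely between tumours (-5.03 ± 0.37, edgeR adjusted p = 0.000133). Angptl1, an angiopoietin-like gene, and Adam33, a metalloprotease gene, had 3 transcripts each in the members against 357 and 255. Their rates were 19.2 and 13.7 times lower, with 95% counting intervals of 6.52 to 93.5 and 4.64 to 66.9. Besides Foxp2, Gdf10, Il33, Sfrp4 and Pi16, the others were Nov, a matricellular protein gene (-3.91), the neuropeptide receptor gene Adcyap1r1 (-3.28), the amine oxidase gene Aoc3 (-3.18) and the prostacyclin synthase gene Ptgis (-3.14), with edgeR adjusted p of 0.0018 to 0.0115. Nov and Aoc3 lost the call without tumour 3 (0.0913 and 0.105), and Ctla2a, Angptl1, Adam33 and Ptgis could not be fitted without it, nor Ctla2a and Adam33 without tumour 4.

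One lower gene changed direction with the comparison wells. Il1rl1, the receptor of IL-33, stood at 0, 1.42, 1.18 and 0.75 against 0, 1.94, 12.2 and 6.40 (-2.47 ± 0.49, edgeR adjusted p = 0.0275), but at a log2 fold change of 0.71 against wells within the same limits (0.235). It was the only 1 of the 77 lower genes tested in both whose direction turned.

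Markers of other cell types were low in the members. Of the listed epithelial markers, 14 were measured and 9 had no transcript in any member, Epcam among them, and the summed level ran from 0 to 0.0819 per 10000 (other fibroblast wells 0.0716 to 0.481). Endothelial markers ran from 0 to 0.163 (0.363 to 0.481; 4 of 10 at 0, among them Cldn5 and Flt1), immune markers from 0 to 0.147 (0.0437 to 0.107; 5 of 11 at 0, Ptprc among them), glial markers from 0 to 0.185 (0.0205 to 0.428; 4 of 8 at 0, Sox10 among them) and mesothelial markers from 0 to 0.357 (0 to 0.156; 1 of 6 at 0). No gene of these 5 lists was abundant enough to be tested.

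Muscle-related markers were present at low level. Smooth muscle markers ran from 2.12 to 3.70 in the members and from 2.86 to 31.9 in the other wells, the high value being tumour 1, and all 8 were detected. The rule's Myh11 limit applied to the members only, so this difference is no independent sign of cell identity. Against wells within the same limits, Des was the only 1 of 4 tested smooth muscle genes called, and was lower (list median 0.66). Pericyte markers ran from 0.923 to 1.68 (2.19 to 4.64; 7 of 8 detected) and the potassium channel subunit gene Abcc9 of that list was lower by 2.26 (edgeR adjusted p = 0.00341; 0.0795 without tumour 3). Markers of the interstitial cells of Cajal ran from 0.739 to 1.20 (1.97 to 3.54), and those of Pdgfra-bearing cells of the muscle layer from 1.43 to 2.86 (1.51 to 3.92). The globin gene Beta-s, the only 1 of the red cell markers tested, was lower. It stood at 3.42, 1.80, 4.28 and 2.36 against 5.72, 21.3, 10.3 and 18.5 (-2.19 ± 0.43, edgeR adjusted p = 0.0212; up to 0.0917 without tumour 2, 3 or 4). It was also lower against wells within the same limits (-2.39, 0.00257). Against the Grem1/Rspo3 wells and the Adamdec1, Wnt4 and Tcf21 wells described below, it did not pass (-0.06 and -0.27, edgeR adjusted p = 0.961 and 0.785). The part of other cell types or of free RNA in the results above was not tested. Cycling genes ran from 1.96 to 6.08 (1.62 to 3.65), with neither of the 2 tested called, and none of 20 dissociation stress genes was called (median 0.15).

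Levels of genes that the rule did not use were also set out by the number of selecting transcripts in a well, as a description without a test. Fibroblast wells within the limits, plus the members, were summed by tumour in steps of none (432 wells), 1 (60), 2 (25), 3 or 4 (16), 5 to 9 (21) and 10 or more (22) selecting transcripts. Tumour 1 gave 1 to 3 wells to each step above none, so ranges over tumours 2 to 4 are given. Adamdec1 stood at 0.390 to 0.454 per 10000 in wells with none, 1.21 to 2.60 with 1 transcript, 4.93 to 9.37 with 2, 3.91 to 11.9 with 3 or 4, 11.1 to 28.6 with 5 to 9 and 34.8 to 55.3 with 10 or more. The steps were not even in each tumour: from 2 transcripts to 3 or 4, Adamdec1 went from 4.93 to 3.91 in tumour 3, and Bmp4 from 6.30 to 5.74 in tumour 3 and from 9.62 to 6.92 in tumour 4. Wnt4 stood at 0.115 to 0.366 with none and 7.12 to 8.41 with 10 or more, and Bmp4 at 1.96 to 5.18 and 14.9 to 21.97. Cd81 and Il33 went the other way, Cd81 at 3.22 to 4.40 with none and 0.139 to 0.503 with 10 or more, and Il33 at 2.04 to 2.69 and 0 to 0.0359. Pi16, of the same list as Cd81, stood at 2.77 to 3.37 with none and 0 to 0.363 with 10 or more, but reached 8.90 in the 5 wells of tumour 3 with 3 or 4. All of the Pi16 transcripts of those 5 wells lay in 1 well. Procr stood at 0.146 to 0.450 with none and 0.0692 to 0.869 with 2 transcripts. It stood at 1.21 to 3.27 with 5 to 9 and at 0.827 to 6.84 with 10 or more. Over the last step it fell in tumours 2 and 3 (2.70 to 1.45 and 1.21 to 0.827) and rose in tumour 4. F3 stood at 0.0439 to 0.587 with none, 0 to 3.02 with 5 to 9 and 0.0719 to 1.82 with 10 or more. For Lef1 these ranges were 0.00732 to 0.0195, 0 to 0.445 and 0.575 to 1.53. The median depth of the bins was 8680, 10737, 8640, 9954, 13026 and 15458 transcripts, and its part in these steps was not tested.

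**Figure D4:**
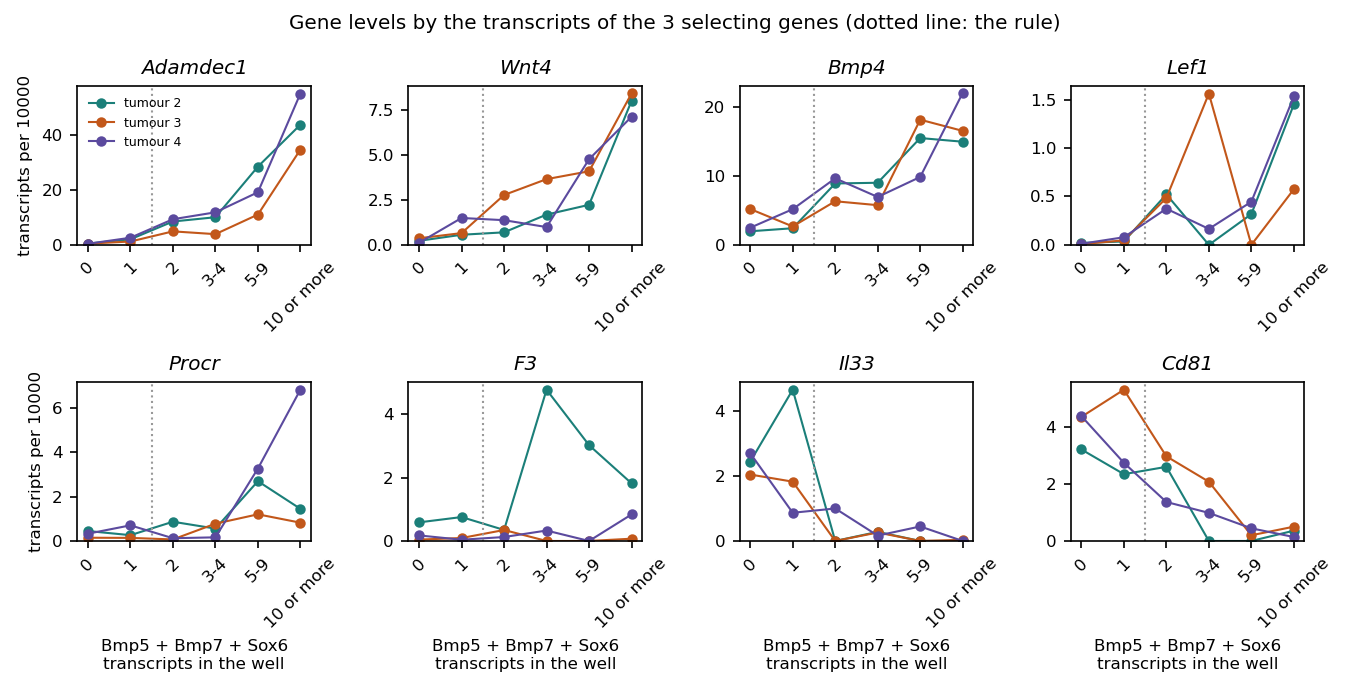
Transcripts per 10000 in the summed wells of tumours 2, 3 and 4 (1 line each), by the number of Bmp5, Bmp7 and Sox6 transcripts in the well; the dotted line marks the rule of at least 2. Adamdec1 reached 34.8 to 55.3 and Wnt4 7.12 to 8.41 in wells with 10 or more, while Il33 and Cd81 ended at 0 to 0.0359 and 0.139 to 0.503. Procr ended at 0.827 to 6.84, F3 at 0.0719 to 1.82 and Lef1 at 0.575 to 1.53.

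The members were next set against the fibroblast wells with at least 2 transcripts of Grem1 and Rspo3, genes of the crypt base niche, again within the Mmp and Myh11 limits. There were 76 such wells, in sums of at least 5 wells in tumours 2, 3 and 4 only, and Grem1 and Rspo3 themselves were not tested. Of 5704 genes, 139 were higher in the Bmp5/Bmp7 wells (2.44%) and 95 lower (1.67%) by edgeR with 2 residual degrees of freedom. This comparison shares the member sums with the others, so its calls are not independent of theirs.

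Adamdec1 stood at 21.0, 20.001 and 24.1 in the members and at 0.20, 0.516 and 0.492 in the Grem1/Rspo3 wells of tumours 2 to 4 (log2 fold change 5.74 ± 0.34, edgeR adjusted p = 2.69e-05). Lef1 had 56 transcripts against 0, at least 26.0-fold higher when the comparison group is set at 3 transcripts over all its wells. The BMP ligands Bmp2 and Bmp4 were higher by 3.49 ± 0.39 and 1.84 ± 0.27 (edgeR adjusted p = 0.000759 and 0.00313), and the WNT ligands Wnt5a and Wnt4 by 2.87 ± 0.30 and 3.05 ± 0.27 (0.000631 and 0.000313). Of 21 other telocyte genes, 12 were higher and none lower (median 2.06). They held the peptide hormone gene Enho, the retinol carrier gene Rbp4, the collagen gene Col6a4 and Glp2r, the receptor of the gut hormone GLP-2. F3 and Procr were again not called (median 1.21). Without tumour 2, 194 genes were called higher and 174 lower.

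Contractile genes were higher here too: 7 of 18 were higher and 2 lower (median 0.60), with Acta2 at 16.7, 11.1 and 13.8 against 10.1, 1.70 and 3.50 (1.71 ± 0.36, edgeR adjusted p = 0.0215) and the matricellular gene Postn higher by 1.43. The inflammatory list had 1 higher gene, Il11, an interleukin 6 family cytokine (2.50 ± 0.45, edgeR adjusted p = 0.00829), and 4 lower. Il6 stood at 0.218, 0.721 and 0.107 against 8.57, 1.89 and 4.57, well apart in each tumour (-3.53 ± 0.64, edgeR adjusted p = 0.0095). Il33 was lower by 4.93, the matrix gene Smoc2 by 5.03, Col8a1 by 4.08 and Sfrp1 by 2.59 (edgeR adjusted p = 0.000313 to 0.000932). Foxp2, with 2 transcripts against 158, was 56.7 times lower (95% counting interval 15.5 to 473).

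A further comparison was made with 160 fibroblast wells within the limits that carried at least 2 transcripts of Adamdec1, Wnt4 and Tcf21 without meeting the rule, 44 of them also among the Grem1/Rspo3 wells. These 3 genes were left out of the test. Of 5770 genes, 103 were higher in the Bmp5/Bmp7 wells (1.79%) and 97 lower (1.68%) over 4 tumours. Here F3 and Procr were called: F3 stood at 1.29, 2.34, 0.115 and 0.321 against 0.12, 0.723, 0.0599 and 0.126, higher in each tumour (1.59 ± 0.38, edgeR adjusted p = 0.035), and Procr was higher by 2.55 ± 0.41 (0.00259), though not in tumour 1 (0.185 against 0.359).

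The largest increases were Wif1 (4.81 ± 0.40) and Emid1, a gene of an EMI domain matrix protein (4.68 ± 0.40), with edgeR adjusted p of 3.14e-05 and 3.38e-05. Wif1 stood at 0.554, 1.20, 1.15 and 2.61 against 0, 0.0482, 0.015 and 0.112, clear of overlap. Bmp2 stood at 1.48, 6.97, 2.67 and 2.75 against 0.12, 0.547, 0.374 and 0.462 (3.02 ± 0.27, edgeR adjusted p = 3.45e-05), equally clear. Lef1, Nrg1, Wnt5a and Lama5, a laminin of the epithelial basement membrane, were higher by 3.82, 3.53, 2.21 and 3.77. Of 16 contractile genes, 7 were higher and 2 lower (median 1.11). Acta2 stood at 31.5, 16.7, 11.1 and 13.8 against 5.86, 5.48, 2.11 and 3.45 (2.06 ± 0.22, edgeR adjusted p = 0.000166).

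In the same comparison 6 of 11 trophocyte and adventitial genes were lower and none higher (median -1.49), and 5 of 19 inflammatory genes were lower with Il11 higher (3.12 ± 0.45, edgeR adjusted p = 0.00121). C3 stood at 17.7, 8.44, 6.16 and 15.9 against 43.5, 28.6, 32.6 and 42.0 (-1.75 ± 0.23, edgeR adjusted p = 0.0007). Il33, the acute-phase gene Hp and Ctla2a were lower by 4.22, 4.29 and 4.69. Foxp2 had 2 transcripts against 166, a rate 47.0 times lower (95% counting interval 12.8 to 391), and Flrt3, an adhesion gene, 1 against 126 (71.3, 12.6 to 2839). Bmp4, higher against the other classes, did not pass here (0.89, edgeR adjusted p = 0.0671). Without tumour 3, 34 genes were called higher and 30 lower, and without tumour 4, 30 and 39.

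The members were not uniform. The split into 17 wells with a Sox6 transcript and 67 without was chosen after the data were seen, uses a gene of the rule and was not tested. Wells with Sox6 were found in tumours 2, 3 and 4 only (5, 6 and 6) and were no deeper (median 9485 transcripts against 12189). Fgf9, Procr and F3 stood higher in them. Fgf9 stood at 0.54, 1.03 and 2.10 with Sox6 and at 0.0682, 0 and 0 without, and 29 of its 34 transcripts were in the 17 wells. Procr stood at 5.40, 1.87 and 6.58 against 0.546, 0.497 and 1.13, and was found in 13 of the 17 wells (90 transcripts) and in 20 of the 67 others (58). F3 stood at 7.56, 0.373 and 0.92 against 1.02, 0.0596 and 0.098, and was found in 11 wells with Sox6 (39 transcripts) and 14 without (34). All 3 genes were higher with Sox6 in each of the tumours.

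Adamdec1 was highest in the same wells, at 55.5, 35.3 and 56.4 with Sox6 and 12.3, 16.7 and 12.002 without, and was found in all 17. Col4a5, a basement membrane collagen gene, stood at 1.89, 2.05 and 2.89 against 0.0682, 0.298 and 0.098, and Rbp4 at 1.62, 1.49 and 3.16 against 0.136, 0.298 and 0.49. Acta2 stood at 33.6, 21.8 and 33.0 against 12.4, 8.86 and 6.69, higher in each tumour.

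Other genes of the members lay in the wells without Sox6. Cd34 stood at 1.23, 2.65 and 4.91 there and at 0, 0.187 and 0.131 with Sox6. Il11 had 243 transcripts without and 2 with Sox6, and Fgfr2 stood at 1.98, 3.02 and 1.96 against 1.62, 0.466 and 0.131. The BMP antagonist gene Grem1 and Edil3, an integrin ligand gene, had 84 and 134 transcripts in the wells without Sox6 and none with it, where a count of 0 allows up to 3 transcripts in 220405. Bmp4 and Nrg1 were found on both sides, Bmp4 at 15.1, 10.7 and 21.9 with Sox6 and at 11.3, 14.5 and 8.65 without, so those higher genes of the whole set did not follow Sox6 in every tumour.

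**Figure D5:**
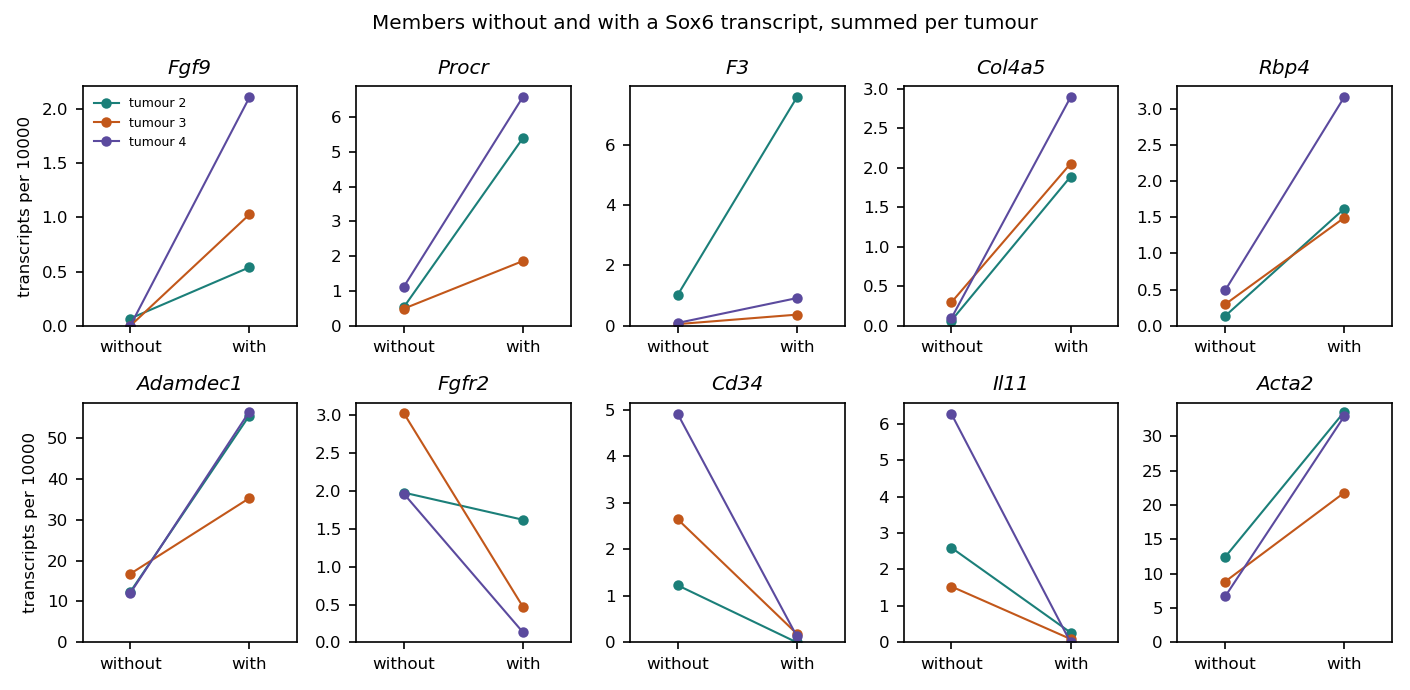
Transcripts per 10000 in the summed Bmp5/Bmp7 wells without (left) and with (right) a Sox6 transcript; each line is 1 of tumours 2, 3 and 4 and each axis starts at 0. Fgf9, Procr, F3, Col4a5, Rbp4, Adamdec1 and Acta2 were higher with Sox6 in each tumour and Fgfr2, Cd34 and Il11 lower.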

How the data were processed

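The deposited tables give expected counts, that is transcripts estimated from UMIs, for 16305 genes in each well; every value equals a saturation-corrected whole number of UMIs out of 4096 to within 0.00486. BWA and mm10 were used, per the submitters' processing notes; versions and the counting program were not stated there. Members, lists and tests were chosen with earlier results of these data known. Spike-ins were left out; plates held 612734 to 3165550 transcripts. Counts of wells were summed per tumour and class (at least 5 wells), rounded, and tested with edgeR 4.0.16 in R 4.3.3 (TMM, filterByExpr, tumour as block; the classes come from the same tumours, so the tumour pairs them), adjusted by Benjamini and Hochberg over all tested genes; the rule's genes were left out. The test was tried on simulated data. Wells are not replicates. With the tumour as block, p-values measure how far the difference between classes varies between tumours, which may be technical. There were 4 tumours, or 3 against Grem1/Rspo3 wells and in some alternatives. Alternatives used DESeq2 1.42.0, thinning, other limits and left-out tumours. Named genes are those of the 34 lists described, plus the 12 largest called changes each way with 1 sign in all tumours and at least 20 transcripts; uncalled genes were chosen after their values were seen. Some genes of this rule are counted but not reported here. Positions are from GENCODE (mm10). No doublet was removed, since each well was meant to hold 1 cell; well numbers repeat on every plate.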

Additional observations from a re-analysis of the deposited data

Results flagged for a closer look

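In 5 of 70 sets of 4 tumour values, 1 tumour stood apart from the other 3 by Dixon's criterion for 4 samples, which chance meets in about 1 of 20 sets. In the summed Bmp5/Bmp7 wells, Cldn1 was high in tumour 1 (1.57 transcripts per 10000, a class of 6 wells). Agt was low in tumour 2 (0.163). Il33 was high in tumour 4 (0.429), Nov in tumour 2 (0.218) and Pi16 in tumour 3 (0.590), where all 3 genes were low in the other tumours. The Pi16 value came largely from 1 well. These values were not tested further.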

How the results depend on the processing

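Against all other fibroblast wells (97 genes higher, 79 lower), the counts were 205 and 287 with no filter on low counts, 48 and 34 with no tumour as replicate block, 214 and 281 with at least 3 selecting transcripts per 10000, 63 and 47 with wells thinned to 3000 transcripts, 163 and 238 with the rule applied to thinned wells, 203 and 170 with at most 15% mitochondrial transcripts, 216 and 198 with at least 10 wells per sum, and 178 and 146 with the same limits on both classes. With 1 tumour left out they ran from 16 to 216 and from 8 to 198. Tumour 1 had too few wells for some of these fits, which held tumours 2, 3 and 4 only. They were the fits with 3 selecting transcripts per 10000, the rule on thinned wells, the 15% mitochondrial limit and 10 wells per sum. The last of them is the same fit as leaving out tumour 1 (216 and 198). Against Grem1/Rspo3 wells (139 and 95) the counts were 279 and 246 with no filter and 56 and 46 after thinning, and ran from 136 to 194 and from 115 to 174 with a tumour left out. Against Adamdec1, Wnt4 and Tcf21 wells (103 and 97) they were 194 and 214 with no filter, 53 and 42 with no replicate block and 59 and 58 after thinning, and ran from 30 to 136 and from 30 to 115. The mean share of wells was 6.12% after thinning and 10.6 to 13.1% with a tumour left out. DESeq2 called 96 of the 97 and 75 of the 79 genes again. Over the named genes, 1122 of the refitted values kept direction and side of the threshold, 169 kept direction only and lost the call, and 9 gained it. Thinning left fewer genes to fit, and a left-out tumour left fewer samples. Calls moved both ways against all other fibroblast wells, to 216 and 198 without tumour 1 and to 16 and 8 without tumour 3. The cause of these shifts was not tested. Depth limits Fgf9 and Foxl1, which were too low to test.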
